A study of Mus musculus with 4 samples.

Results

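The fibroblast growth factors, the platelet-derived growth factors, the vascular endothelial growth factors, the epidermal growth factor family and hepatocyte growth factor were examined together with their receptors in aortic smooth muscle cells of the mouse. Members were all probes whose gene name in the array files is that of a ligand or receptor of these families, namely the Fgf genes, Fgfr1 to Fgfr4 and Fgfrl1, the Pdgf and Pdgfr genes, Vegfa to Vegfd, the ligands and receptors of the epidermal growth factor family, and Hgf and Met. The rule used names and no values, but it was set with earlier results of these data known. This gave 49 genes of 27827 gene names on the array, with 105 of 41174 probes. Of these, 48 probes of 28 genes gave signal well above background in at least 1 genotype on all 4 arrays, and 57 probes did not.

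The cells were primary aortic smooth muscle cells of strain C57LB/6 (spelled as labelled), with the genotypes Atg7F/F SM22α-Cre+ and Atg7+/+ SM22α-Cre+. F marks the floxed allele of Atg7, which encodes an enzyme needed to form autophagosomes, and Cre recombinase removes the floxed part where the SM22α promoter is or was active, as in smooth muscle. The controls carried the same Cre, and the age of the animals is not given in the sources used here. Cells of both genotypes were grown in DMEM/F-12 with 10% serum, which itself contains growth factors, and used between passages 4 and 10. There were 2 biological replicates per genotype. The Atg7F/F extract of a replicate shared its arrays with the Atg7+/+ extract of that replicate, once in each dye orientation, so 4 arrays held 4 extracts. What else same-numbered extracts share, and whether they came from separate animals, is not given in the sources used here, so p-values measure only the spread between these samples.

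Most of these ligands bind receptor tyrosine kinases, which dimerise, phosphorylate each other and pass the signal to the Ras-ERK and PI3K-AKT pathways. Many fibroblast growth factors use heparan sulfate as a cofactor. Several ligands of the epidermal growth factor family are made as membrane proteins and released by shedding. In the vessel wall, platelet-derived growth factor and Fgf2 are known as mitogens of smooth muscle cells, and Vegfa made by smooth muscle acts on endothelial cells.

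Values are log2 ratios of Atg7F/F over Atg7+/+, so 1 is a 2-fold higher signal in Atg7F/F cells. The mean is over the 2 replicates and the error is their SD (n = 2), each replicate being the average of its dye-swapped arrays. Levels are normalized log2 signals of an extract, averaged over both dyes, and are set only against levels of the same probe, because probes differ in how well they bind. An offset of 50 added to the signals pulls ratios of dim probes towards 0. Adjusted p-values are from limma with Benjamini-Hochberg adjustment over all 17109 probes above background.

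Some of the probes that the main results rest on, each 60 bases long, are printed here 5′ to 3′ in lower case, as given in the files, so that a reader can see which part of a transcript was measured. Fgf7 is shown because its ratio was the largest among the members, Fgf2 and Pdgfa because they were lower on all 4 arrays, and Nrg1 and Egfr because the replicates differed in them.
Fgf7: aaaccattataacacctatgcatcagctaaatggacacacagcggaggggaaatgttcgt
Fgf2: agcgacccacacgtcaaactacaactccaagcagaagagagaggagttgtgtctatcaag
Pdgfa: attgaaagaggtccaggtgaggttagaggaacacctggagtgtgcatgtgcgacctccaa
Nrg1: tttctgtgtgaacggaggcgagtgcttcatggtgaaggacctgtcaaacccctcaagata
Egfr: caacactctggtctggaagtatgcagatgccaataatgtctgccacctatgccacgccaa
On the mm9 build the Fgf7 probe lies at chr2:125915147-125915206 on the plus strand and the Pdgfa probe at chr5:139455132-139455191 on the minus strand. The Nrg1 probe lies at chr8:32959791-32959850 on the minus strand and the Egfr probe at chr11:16783545-16783604 on the plus strand. The Fgf2 probe runs from 37247934 to 37295153 on chromosome 3, so its 60 bases are spread over 47220 bases of the genome and cross at least 1 splice junction. Each of these probes has at least 1 reading frame without a stop codon. No gene annotation of this build was used here, so exons are not stated. Among member probes above background, the longest run of bases shared by probes of different genes was 12.

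The Atg7 probe above background had a mean of -1.22 ± 0.07, lower on each of the 4 arrays. Its limma p was 0.000534 before and 0.9997 after adjustment, so it was not called either. Whether the probe lies in the floxed part is not known. The share of spots well above background ranged over the channels from 43.3% to 45.5%, and 0 spots were saturated.

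Over all members, limma called 0 of 48 probes at an adjusted p below 0.05, and 0% of all probes above background were called. The adjusted p was 0.9997 for each of the 48 probes. At an unadjusted p below 0.05, 1 member probe was higher (Fgf7) and 3 were lower (Vegfb, Fgf2 and 1 probe of Ereg), where 1.34% of all probes were higher and 1.79% lower. On all 4 arrays, 4 member probes were higher (Fgf7, Hgf, Pdgfc and Ereg) and 6 lower (Fgf2, Fgf13, Pdgfa, Vegfb, Tgfa and the other probe of Ereg). The probes named Ereg lie on opposite strands and read different transcripts. Of all probes, 10.2% were higher and 10.1% lower on all 4 arrays. With median centring in place of loess, 4 member probes and not 10 had one sign on all 4 arrays. The median ratio of the member probes was 0.01 and that of all probes 0.00. When all 4 arrays entered limma with the pair as a random block, 1 member probe was called, that of Fgf7, where 0.0526% of all probes were called. That fit also counts the agreement of the dye-swapped arrays, which are technical repeats. Of the 48 probes, 42 had signal above background in each genotype on every array, and the others passed through 1 genotype alone. Among these others were the probes of Hgf, Fgf13 and Tgfa and the lower probe of Ereg named above. Each of these named probes was higher in the genotype through which it passed, so the filter itself favours that direction. So was a probe of Pdgfd, at 0.37, while a probe of Met passed through Atg7+/+ alone and had a mean of 0.06. Of the 42 probes, 6 had one sign on all 4 arrays.

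**Figure D1:**
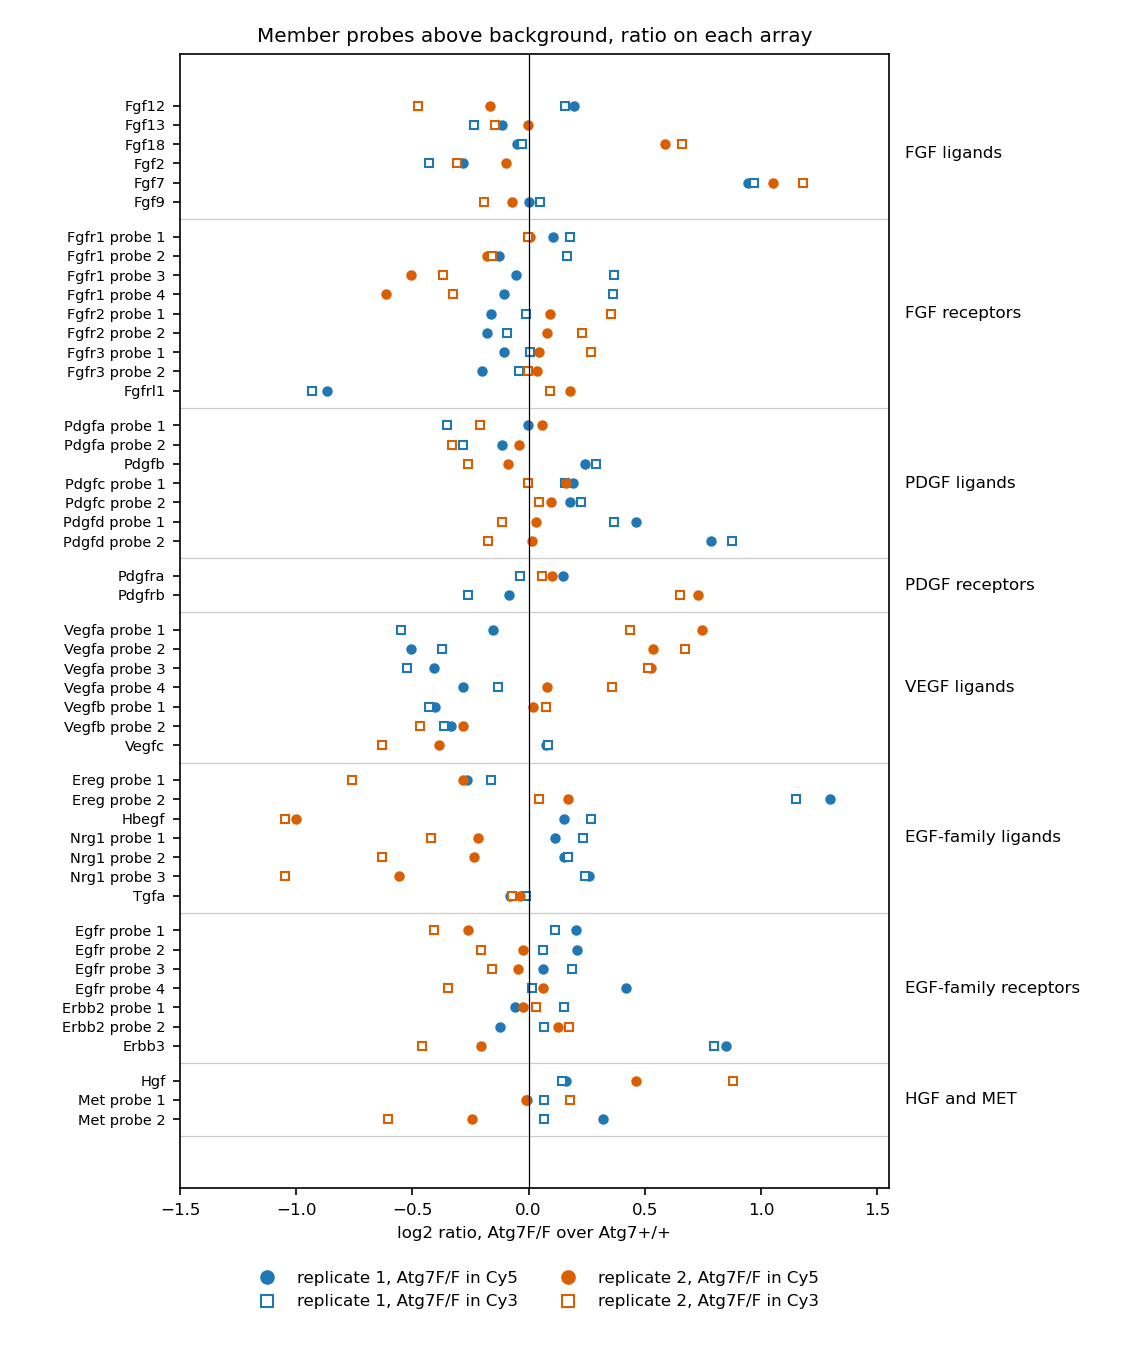
Log2 ratio of Atg7F/F over Atg7+/+ on the x axis for each of the 48 member probes above background, grouped by role, with 1 point per array; colours mark the replicates and symbols the dye orientation, and probes of 1 gene are numbered by position. The Fgf7 points lie between 0.94 and 1.18, while for Vegfa, Hbegf and Nrg1 the points of the replicates lie on opposite sides of 0.

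In 23 of the 48 probes, from 15 genes, both arrays of one replicate had one sign and both arrays of the other replicate had the opposite sign. That is 47.9%, where 25.3% of all probes above background had this pattern. With the brightest probe standing for each gene, it was 14 of 28 members, or 50%, against 26.8% of all genes. The median SD between replicates was 0.28 for the member probes and 0.11 for all probes. The pattern requires both arrays of each replicate to share a sign, which small ratios can miss. Median absolute ratios in replicates 1 and 2 were 0.175 and 0.181 for member probes, against 0.079 and 0.118 for all probes. The same sign on every array was seen in 10 of 48 member probes and 3488 of 17109 probes. Neither pattern was seen in 15 and 9298 of these. Whether the larger ratios account for the higher share was not tested. In 13 of the 23 probes replicate 1 was the one with the higher signal in Atg7F/F cells, and in 10 it was replicate 2. The share was not tested, since probes of 1 gene share a transcript and members share extracts.

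**Figure D2:**
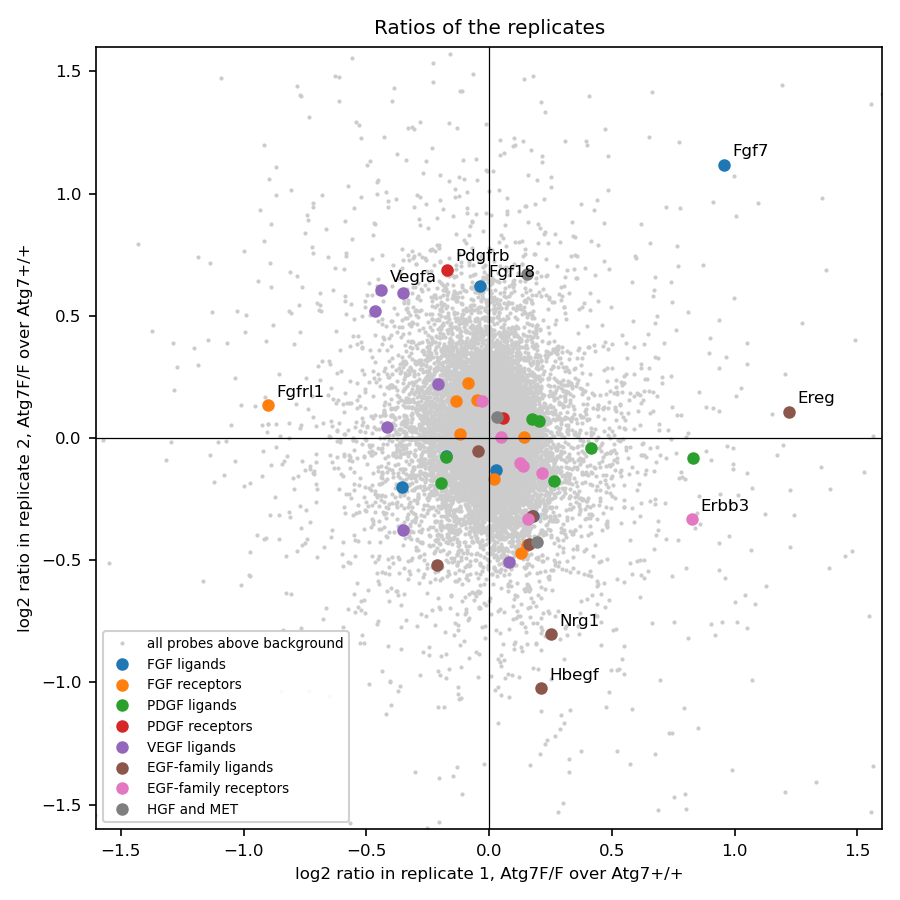
Log2 ratio of Atg7F/F over Atg7+/+ in replicate 1 (x axis) against replicate 2 (y axis), with all probes above background in grey, 79 of them outside the axes, and member probes coloured by role. Fgf7 lies at 0.96 and 1.12, while Hbegf and Nrg1 lie low on the right and Vegfa and Pdgfrb high on the left.

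Among the fibroblast growth factor ligands, 21 genes were on the array and 6 had a probe above background. Fgf7, also called keratinocyte growth factor, is made by mesenchymal cells and acts on epithelial cells through a splice form of Fgfr2. Its ratios were 0.94 and 0.97 on the arrays of replicate 1 and 1.05 and 1.18 on those of replicate 2. Its levels were 8.64 in Atg7+/+ and 9.59 in Atg7F/F cells of replicate 1, and 9.63 and 10.74 in those of replicate 2. Within each pair Atg7F/F was higher, but the genotypes overlapped across pairs, since both extracts of replicate 2 lay above those of replicate 1 of the same genotype. The mean was 1.04 ± 0.11, a fold of 2.05, with a limma p of 0.00118 before and 0.9997 after adjustment. With the pair as a random block the adjusted p from limma was 0.033, and with the extracts unpaired the unadjusted p was 0.118. With a trended prior variance in limma the unadjusted p was 0.0319. Over the 12 other fits, its ratio lay between 1.04 and 1.16.

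Fgf2, basic fibroblast growth factor, was measured by 1 probe above background. Its other probe, from the same transcript record, had 0 channels above background. The probe above background had ratios of -0.28 and -0.43 for replicate 1 and -0.10 and -0.31 for replicate 2. Levels were 7.95 in Atg7+/+ and 7.59 in Atg7F/F cells of replicate 1, and 7.48 and 7.28 in replicate 2. Atg7F/F was lower in each pair, and the genotypes overlapped across pairs. Endothelial and smooth muscle markers also had lower median signals in Atg7F/F, with values given beside the other markers. Any link of these markers to Fgf2 was not tested. The mean of Fgf2 was -0.28 ± 0.11, with a limma p of 0.0485 before and 0.9997 after adjustment. With the software's processed signals the mean was -0.48.

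Fgf18, a ligand known for roles in skeletal growth, had ratios of -0.05 and -0.03 for replicate 1 and 0.59 and 0.66 for replicate 2. Its level was between 11.18 and 11.29 in 3 extracts and 10.67 in the Atg7+/+ extract of replicate 2, so the low extract was a control. Fgf9, a ligand of mesenchymal and epithelial signalling, had a mean of -0.05 ± 0.11. The intracellular family members Fgf12 and Fgf13, which bind sodium channels and not receptors, had means of -0.07 ± 0.35 and -0.12 ± 0.07. Fgf13 was well above background in Atg7F/F on 2 of 4 arrays and in Atg7+/+ on all 4. With the scanner software's processed signals Fgf12 was at -0.70 and Fgf13 at -1.16. The median of the 6 probes was -0.06, beside 0.00 for all probes.

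The other fibroblast growth factor ligands had no probe past the filter. Fgf11 and Fgf5 were well above background in at most 6 and 5 of the 8 channels, and Fgf8 and Fgf21 in at most 2. Fgf1, Fgf3, Fgf6, Fgf10, Fgf14 to Fgf17, Fgf20, Fgf22 and Fgf23 had 0 channels above background.

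The upstream sequence of Fgf7 is shown because Fgf7 had the largest ratio, although no binding or chromatin data bear on it here. RefSeq on GRCm38.p6 gives the 250 bases before its start at chr2:126034408-126034657 on the plus strand, with the 1 motif match in capitals.
Fgf7 upstream: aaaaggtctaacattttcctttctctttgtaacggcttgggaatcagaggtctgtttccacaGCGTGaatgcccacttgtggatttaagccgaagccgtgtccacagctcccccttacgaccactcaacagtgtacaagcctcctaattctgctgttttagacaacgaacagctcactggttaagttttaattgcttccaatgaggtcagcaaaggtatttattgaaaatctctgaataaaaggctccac
Both strands of this window were searched for the AP-1 site TGANTCA, the antioxidant response core TGACNNNGC, the hypoxia response core ACGTG or GCGTG, the E-box CACGTG, which contains a hypoxia core, the TATA box TATAAA, and the CArG box by its usual pattern. The match is a hypoxia core, GCGTG, 188 to 184 bases before the start, and 38.6% of 32851 windows in the table hold such a core. Of the 28 members above background, 21 had an entry, with 31 windows. Of these 31, the hypoxia core was in 15 and the antioxidant core in 8, beside 38.6% and 10.2% of all windows. The AP-1 site was in 3, the E-box in 2, the TATA box in 1 and the CArG box in 1, beside 6.75%, 6.02%, 12.4% and 1.47% of all windows. A match is a description of the letters and not a site in use.

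The receptors of fibroblast growth factors showed no common direction. Of 9 probes for 4 genes, 0 had one sign on all 4 arrays, where 10.2% of all probes were higher and 10.1% lower. Fgfr1, the main receptor of this family in mesenchymal cells, had 4 probes with means of 0.07, -0.07, -0.14 and -0.17 in order along chromosome 8. The last pair of probes in this order overlap each other and gave 0.16 and 0.13 for replicate 1 and -0.44 and -0.47 for replicate 2. Their dye-swapped arrays in replicate 1 differed in sign, at -0.06 and 0.37 for the first. Fgfr2 had means of 0.01 ± 0.20 and 0.07 ± 0.22 by its probes above background and Fgfr3 of 0.05 ± 0.14 and -0.05 ± 0.10. Fgfr4 was well above background in at most 6 of 8 channels.

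Fgfrl1, a receptor-like protein that binds these ligands and lacks a kinase domain, had ratios of -0.87 and -0.93 for replicate 1 and 0.18 and 0.09 for replicate 2. Its levels were 10.06 and 10.08 in the Atg7F/F extracts and 10.96 and 9.95 in the Atg7+/+ extracts of replicates 1 and 2. The Atg7+/+ extract of replicate 1 stood above the other 3. The mean was -0.38 ± 0.73, with an unadjusted p of 0.295 from limma.

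All 4 platelet-derived growth factor ligands were above background. Pdgfa, which forms the A chain, was lower in Atg7F/F cells of both replicates by both probes. The probe printed above had ratios of -0.11 and -0.28 for replicate 1 and -0.04 and -0.33 for replicate 2. The levels were 11.50 and 11.14 in Atg7F/F and 11.70 and 11.33 in Atg7+/+ extracts of replicates 1 and 2, so the genotypes overlapped across pairs. Its mean was -0.19 ± 0.01, with an unadjusted p of 0.0843 from limma, and the other probe had -0.13 ± 0.07. With median centring in place of loess these means were -0.11 and 0.0035, so the second changed sign. The difference between dye orientations was larger than the SD of the averaged replicates.

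Pdgfc, whose dimer is cut by a protease before it can act, had means of 0.13 ± 0.07 and 0.14 ± 0.09 by 2 probes, the second of them higher on all 4 arrays. Pdgfd, another ligand activated by cleavage, had a mean of 0.19 ± 0.32 by one probe and 0.37 ± 0.64 by the other. The first had levels of 8.07 in Atg7+/+ of replicate 1 and between 8.49 and 8.77 in the other extracts, and the second 6.12 against 6.92 to 7.0, so the same control extract was low in both. That second probe was above background in Atg7+/+ on 2 of 4 arrays and had a mean of 2.12 with processed signals. Pdgfb, the B chain, had 0.27 in replicate 1 and -0.18 in replicate 2, a mean of 0.04 ± 0.31 that was -0.05 with processed signals. Of the 7 probes of this group, 1 was higher and 1 lower on all 4 arrays, beside 10.2% and 10.1% of all probes.

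Pdgfrb is the receptor of the B and D chains and a marker of smooth muscle cells and pericytes. Its ratios were -0.08 and -0.26 for replicate 1 and 0.73 and 0.65 for replicate 2. Levels were 13.27 in Atg7+/+ and 13.10 in Atg7F/F cells of replicate 1, and 12.82 and 13.51 in those of replicate 2. The extracts of replicate 2 were the highest and the lowest, so the mean of 0.26 ± 0.61 lies between replicates of opposite sign. Pdgfra, which also binds the A chain, had levels of 6.94 and 6.99 in Atg7+/+ and of 7.0 and 7.07 in Atg7F/F extracts. These levels did not overlap, but the mean was 0.07 ± 0.02 and 1 of the 4 arrays had the opposite sign.

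Few members had levels that did not overlap between the genotypes over the 4 extracts. Levels were higher in both Atg7F/F extracts for 3 probes, of Ereg, Met and Pdgfra, where 11.5% of all probes above background had this pattern. Levels were lower for 1, that of Tgfa, where 10.3% of all probes were. The Met probe was above background in Atg7F/F on 3 of 4 arrays, with levels of 6.48 to 6.56. Its ratios were -0.01 and 0.07 for replicate 1 and -0.01 and 0.18 for replicate 2, and the brighter Met probe had a mean of -0.12. The Tgfa probe passed the filter through Atg7+/+ alone, which favours a lower ratio.

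Vegfa, the main growth factor of endothelial cells, was measured by 4 probes, and in each of them the replicates had opposite signs. One of them had ratios of -0.41 and -0.52 for replicate 1 and 0.53 and 0.51 for replicate 2. Its levels were 9.50 in Atg7+/+ and 9.04 in Atg7F/F cells of replicate 1, and 9.07 and 9.59 in those of replicate 2. The high extracts were therefore the control of replicate 1 and the Atg7F/F extract of replicate 2. The other probes gave replicate ratios of -0.44 and 0.60, of -0.35 and 0.59, and of -0.21 and 0.22. The means lay between 0.01 and 0.12, with SDs of 0.30 to 0.74 and unadjusted p-values of 0.693 to 0.969 from limma. A mean near 0 here averages differences of opposite sign.

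Vegfb, a ligand of Flt1, had 2 probes on chromosome 19. The one at chr19:7057245-7057304 had ratios of -0.34 and -0.37 for replicate 1 and -0.28 and -0.47 for replicate 2. Its levels were 9.11 and 9.46 in Atg7F/F and 9.46 and 9.83 in Atg7+/+ extracts, so the highest Atg7F/F and the lowest Atg7+/+ level were alike. The mean was -0.36 ± 0.02, with a limma p of 0.0166 before and 0.9997 after adjustment. The other probe had -0.42 in replicate 1 and 0.05 in replicate 2, so the probes differed in replicate 2.

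Vegfc, a ligand of lymphatic endothelium, had ratios of 0.08 and 0.09 for replicate 1 and -0.38 and -0.63 for replicate 2. Levels were 11.17 in Atg7+/+ and 11.25 in Atg7F/F cells of replicate 1, and 10.64 and 10.13 in those of replicate 2, the lowest being Atg7F/F. Vegfd is on the array under its older symbol Figf and so outside the rule. Figf was between 12.05 and 12.15 in 3 extracts and 13.35 in Atg7F/F of replicate 2, with a mean ratio of 0.66 ± 0.80.

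**Figure D3:**
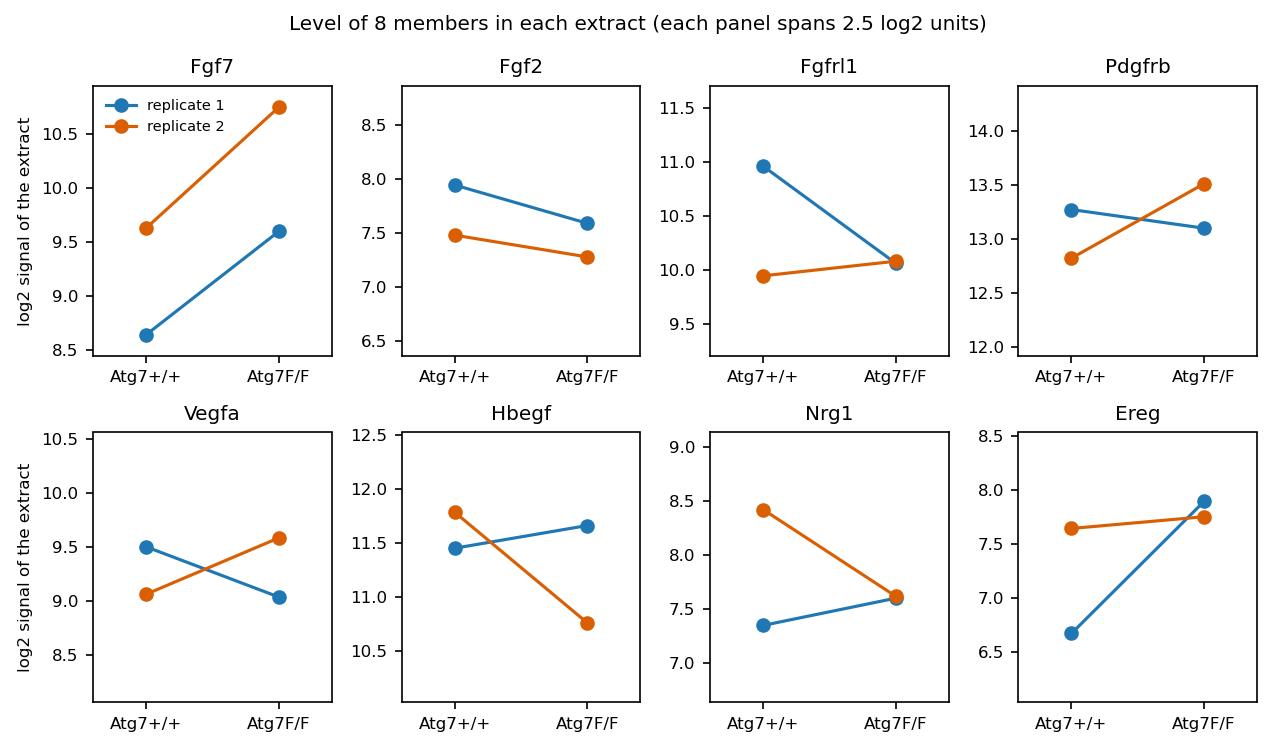
Level of 8 members in each extract, as log2 signal on the y axis, with the genotype on the x axis and a line joining the extracts that shared arrays; each panel spans 2.5 log2 units. Fgf7 is higher in Atg7F/F in both pairs, at different levels, while the lines of Vegfa, Pdgfrb and Hbegf cross.

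Hbegf is a ligand of Egfr that is made as a membrane protein and shed, and it is known as a smooth muscle mitogen. Its ratios were 0.15 and 0.27 for replicate 1 and -1.0 and -1.05 for replicate 2. Levels were 11.45 in Atg7+/+ and 11.66 in Atg7F/F cells of replicate 1, and 11.79 and 10.76 in those of replicate 2. The Atg7F/F extract of replicate 2 was low and the other 3 were close together. The mean was -0.41 ± 0.87, with an unadjusted p of 0.338 from limma.

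Nrg1, neuregulin 1, binds Erbb3 and Erbb4, and 3 of its probes on chromosome 8 were above background. The probe printed above had ratios of 0.26 and 0.24 for replicate 1 and -0.56 and -1.05 for replicate 2. Levels were 7.35 in Atg7+/+ and 7.60 in Atg7F/F cells of replicate 1, and 8.42 and 7.62 in those of replicate 2. Here the extract that stood apart was the control of replicate 2. The other probes gave 0.16 and -0.43, and 0.17 and -0.32. The means were -0.28, -0.14 and -0.07, with SDs of 0.35 to 0.75.

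Ereg, epiregulin, binds Egfr and Erbb4, and the probes under its name in the array files lie on opposite strands. The probe at chr5:91521659-91521720 had ratios of 1.30 and 1.15 for replicate 1 and 0.17 and 0.05 for replicate 2. Its levels were 6.67 in Atg7+/+ of replicate 1 and between 7.65 and 7.90 in the other extracts, so a low control gave most of the mean of 0.67 ± 0.79. The unadjusted p from limma was 0.131. The probe at chr5:91480914-91480973 lies 40686 bases away on the opposite strand, and its ratios were -0.26 and -0.16 for replicate 1 and -0.28 and -0.76 for replicate 2. Its mean was -0.37 ± 0.22, with an unadjusted p of 0.0492, and it was above background in Atg7F/F on 3 of 4 arrays. With processed signals the means of these probes were 1.30 and -1.56. By their listed strands and transcript records, these probes do not read the same transcript. They are therefore not repeat measurements of Ereg, and the minus-strand probe is counted here by its gene name alone.

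Tgfa, transforming growth factor alpha, had a mean of -0.05 ± 0.01, which was -0.62 with processed signals, and was above background in Atg7F/F on 2 of 4 arrays. Areg, Btc, Nrg3 and Nrg4 had 0 channels above background. Fgf4 and Nrg2 were not analysed here.

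Egfr, the receptor shared by most of these ligands, had 4 probes above background. The probe printed above had ratios of 0.20 and 0.12 for replicate 1 and -0.26 and -0.41 for replicate 2. Its levels were 9.65 in Atg7+/+ and 9.81 in Atg7F/F cells of replicate 1, and 9.26 and 8.93 in those of replicate 2. Both extracts of replicate 2 were below both of replicate 1, and the genotypes overlapped. The 4 means lay between -0.09 and 0.04, with unadjusted p-values of 0.622 to 0.927 from limma. The sign of 2 of these means, 0.01 each, changed with the background correction.

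Erbb2, a coreceptor without a known ligand, had means of 0.03 ± 0.03 and 0.06 ± 0.13. Erbb3, which binds neuregulins and has a weak kinase, was above background by 1 of 5 probes. That probe had 0.85 and 0.80 for replicate 1 and -0.21 and -0.46 for replicate 2, with levels of 6.5 in Atg7+/+ of replicate 1 and of 7.01 to 7.34 in the other extracts. The other probes of Erbb3, from a different transcript record, were above background on at most 1 array in each genotype. Erbb4 had 0 channels above background.

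Hgf, a ligand of mesenchymal origin that acts on cells with its receptor Met, had ratios of 0.16 and 0.15 for replicate 1 and 0.46 and 0.88 for replicate 2. Its levels were 6.38 in Atg7+/+ and 6.54 in Atg7F/F cells of replicate 1, and 7.01 and 7.68 in those of replicate 2. As for Fgf7, both levels in replicate 2 were above both levels in replicate 1. The mean was 0.41 ± 0.37, with an unadjusted p of 0.0862 from limma, and the probe was above background in Atg7+/+ on 2 of 4 arrays. With processed signals the mean was 1.28. The probe was 1 of 4 for Hgf, and the others did not pass the filter. Of those, the probe at chr5:16121326-16121385 was above background in Atg7F/F on 2 of 4 arrays and had a mean of 0.06 ± 0.20. Met had means of 0.06 ± 0.04 and -0.12 ± 0.44, the second from 0.19 in replicate 1 and -0.43 in replicate 2.

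Other genes of the pathway were taken from lists, and limma called 0 probes at an adjusted p below 0.05 in each of these lists. Their counts stand beside all probes above background, of which 10.2% were higher and 10.1% lower on all 4 arrays. At an unadjusted p below 0.05 from limma, 1.34% of all probes were higher and 1.79% lower. Of 20 genes for heparan sulfate proteoglycans and their synthesis, 19 had probes above background. Of their 29 probes, 4 were higher and 2 lower on all 4 arrays, with a median of -0.01 and 3 at an unadjusted p below 0.05. These were Sdc4, a syndecan that acts as a coreceptor for fibroblast growth factors, at 0.75 ± 0.38, the sulfotransferase Hs6st2 at 0.28 ± 0.10 and the glypican Gpc1 at 0.27 ± 0.07. Sdc4 had levels of 10.72 and 10.78 in Atg7+/+ and of 11.20 and 11.79 in Atg7F/F extracts, which did not overlap. The levels of Hs6st2 and Gpc1 did not overlap either, and 11.5% of all probes had this pattern with Atg7F/F higher. Sdc4, Hs6st2 and Gpc1 had unadjusted p-values of 0.0203, 0.0436 and 0.0439.

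Of 15 genes for ligand shedding and activation, 11 had probes above background, and of 15 probes 2 were higher and 2 lower on all 4 arrays. Plat, tissue plasminogen activator, which cleaves Pdgfc, had 0.50 and 0.54 in the replicates, a mean of 0.52 ± 0.03 and an unadjusted p of 0.00612 from limma. Its other probe gave 0.15 ± 0.02. Rhbdf2, which is needed for the maturation of the sheddase Adam17, had -0.17 ± 0.03, and St14, a protease that activates Hgf, had -0.15 ± 0.13. Sparc, a matrix protein that binds platelet-derived growth factors, had 0.86 in replicate 1 and -3.93 in replicate 2, with 10.30 in Atg7F/F of replicate 2 and 13.39 to 14.25 in the other extracts.

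Of 16 relatives outside the rule, 9 genes with 11 probes were above background, 2 probes higher and 2 lower on all 4 arrays. Besides Figf, these included Pdgfrl, a receptor-like protein, at 0.29 ± 0.24, and Mst1r, a relative of Met, at -0.16 ± 0.04.

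Genes that act next to the receptors, such as adaptors and ERK kinases, had small ratios. Of 48 probes for 29 genes, 5 were higher and 3 lower on all 4 arrays, with a median of 0.01 and means between -0.22 and 0.19. The smallest unadjusted p-values were 0.0768 for Hras1 (-0.22 ± 0.09) and 0.114 and 0.121 for the probes of Mapk3, an ERK kinase (-0.19 ± 0.09 and -0.18 ± 0.08). Of 22 probes of 15 feedback inhibitors, 2 were higher and 1 lower, with a median of -0.03. Among them were the phosphatase Ptpn1, at 0.13 ± 0.00 and 0.13 ± 0.04, Il17rd at -0.15 ± 0.13, with 0.05 by its other probe, and Errfi1, an inhibitor of Egfr, at 0.19 ± 0.24.

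Of 21 probes of 15 transcripts known to be induced by ERK, 3 were higher and 0 lower on all 4 arrays, and the median was 0.01. In 13 of the 21 the replicates had opposite signs, each on both of its arrays, where 25.3% of all probes did. Etv4 had 0.67 and -1.29, Plaur 0.45 and -0.75 and Phlda1 0.19 and -0.84 in replicates 1 and 2. The members with the smallest p were Myc at 0.21 ± 0.00, with 0.10 and 0.06 by its other probes, Egr2 at 0.40 ± 0.31 and Junb at 0.20 ± 0.19.

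The labelled cell type was checked by markers. Of 10 smooth muscle genes 9 had probes above background, with mean levels over 13 probes of 13.12 and 12.66 in Atg7F/F and 13.12 and 12.83 in Atg7+/+ extracts. Their median ratios were -0.16 and -0.15 in the replicates, with 4 probes lower and 1 higher on all 4 arrays. All 12 endothelial genes were also above background, and 12 of their 14 probes were lower in Atg7F/F on all 4 arrays. Of all probes, 10.2% were higher and 10.1% lower on all 4 arrays. Mean levels of the endothelial probes were 8.41 and 8.57 in Atg7F/F and 8.66 and 9.16 in Atg7+/+ extracts. The levels of 7 adventitial fibroblast genes, of 8 listed, were 8.90 and 9.21 against 9.30 and 8.68, and their median ratio was -0.36 in replicate 1 and 0.59 in replicate 2. Cd34 of this list was lower in both replicates, at -0.36 and -1.02. Neural and Schwann cell markers, 5 of 7 genes, had medians of 0.42 and -0.21, with Ngfr at 2.73 and -1.05 and Sox10 at 1.45 and -0.48, while S100b had -0.74 and 0.89 and Tubb3 0.20 and 1.88. Pericyte markers, 4 of 5 genes, had medians of -0.16 and 0.02, and macrophage and leukocyte markers, 4 of 11 listed names, of -0.12 and 0.09. Epithelial and mesothelial markers were above background for 2 of 7 genes, with 0.02 and -0.61. Adipocyte markers were so for 1 of 5, Fabp4, with -0.56 and 0.51. The medians of endothelial markers (-0.24 and -0.55) and of smooth muscle markers were below 0 in both replicates, as were Fgf2, Pdgfa and 1 probe of Vegfb. The fibroblast median, though not Cd34, and the median of the Fabp4 probes had the replicate signs of Vegfa and Pdgfrb. So did the smaller pericyte and macrophage and leukocyte medians. The neural medians and the epithelial and mesothelial medians had the replicate signs of Hbegf, Nrg1, Erbb3 and Egfr. Their part in these results was not tested. In RNA from whole cultures, fewer cells of a type and less RNA per cell cannot be told apart.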

How the data were processed

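Total RNA of cultured smooth muscle cells was measured on 4 two-colour Agilent arrays, whose dyes and genotypes come from the labels. The deposited scanner files hold mean spot intensity and median background intensity per channel, which the authors extracted with Agilent Feature Extraction (version 10.1.1.1 per the submitters' processing notes). The deposited log10 ratios, Cy5 over Cy3, served only to check directions. The deposited table holds log2 ratios of the software's processed signals, turned to Atg7F/F over Atg7+/+, and equalled them within 0.001 for 100% of 40929 probes with a single spot. Its column medians lay between -0.094 and 0.199, so it was not centred further.

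Intensities were corrected by normexp with an offset of 50 and normalized by loess within arrays, control spots at weight 0, in limma 3.58.1 with R 4.3.3. Levels were scaled between arrays by the Aquantile method. Of 43379 spots, those of 1 probe were averaged, dye swaps were averaged, and 17109 of 41174 probes passed the filter (no non-uniformity outlier, which 36 had, and well above background in 1 genotype on all 4 arrays). limma's lmFit and eBayes tested the 2 replicate ratios against 0, two-sided, with 3.09 degrees of freedom. Flipping the signs of 2 replicates exactly cannot give p below 0.5. Pairing comes from the shared arrays, so the replicate block is part of the test. The code was tested on simulated data.

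The members and lists were chosen with earlier results of these data known. By rule, every member past the filter was named, with full values for major ligands and receptors, and of each other list up to 3 genes with the smallest p. A few items the rule covers are not reported here. Sparc, Etv4, Plaur, Phlda1, Ngfr and Sox10 were named after their values were seen. Alternatives covered offset, background, processed signals, the deposited table, centring, filter, brightest probe, prior variance, random block, dye term, unpaired extracts and each replicate left out.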

Additional observations from a re-analysis of the deposited data

How the results depend on the processing

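With 2 replicates, precision is set by their spread, and the offset pulls ratios of dim probes towards 0. The count of called member probes was 0 in every fit run except that with the pair as a random block, where it was 1 (Fgf7, 1.04, adjusted p 0.033 from limma). With a dye term and the correlation of that fit, an alternative chosen after seeing the data, it was 0 and Fgf7 had an adjusted p of 0.1239. Over the 12 other fits the adjusted p of Fgf7 ran from 0.033 to 1. No replicate block, with the extracts unpaired, left the count of member calls at 0, and Atg7 at -1.22 with an adjusted p of 0.426, and called 1 probe among all 17109, where the fit reported called 0. Member probes with one sign on all 4 arrays numbered 10, and 4 with median centring, 18 with no filter on dim probes (of 105) and 6 among probes above background in both genotypes (of 42). On the 2 arrays of a single replicate, 39 and 40 had one sign. Signs of values near 0 turned for Egfr: 1 probe was at -0.0104 without background subtraction and -0.0073 with processed signals or the deposited table, and another at -0.0054 with an offset of 0, -0.0117 without background subtraction and -0.18 with processed signals or the deposited table. With those processed signals or that table Pdgfb was at -0.0457 and 1 probe of Fgfr3 at 0.0107. The Pdgfa probes were at 0.0035 and -0.11 with median centring. The cause was not tested. With the software's processed signals 21 of 48 member ratios kept their sign and were over 1.5 times as large, among them those of probes of Hgf, Fgf13, Tgfa, Pdgfd and Ereg given above, and Atg7 went from -1.22 to -2.35. The fit with a dye term and its own correlation could not be fitted, since that correlation cannot be estimated from 4 arrays and 2 terms. A slide block was not run, since all 4 arrays lie on 1 slide.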
